A study of Sus scrofa with 31 samples.

Results

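The genes of the mitochondrial ribosome were followed in pig (Sus scrofa) myocardium during heart storage and after warm reperfusion. Members were all genes whose name in either deposited table was MRPL or MRPS followed by a number, which gave 70 genes of 21313 listed in arm 1 and 47 of 25149 listed in arm 2. By name, 44 of the 70 belong to the large subunit (MRPL) and 26 to the small subunit (MRPS), and the 47 arm 2 members are among the 70. In arm 1, 3 members, and in arm 2, 9 members, had an ID but no name in the table, and took their name from the same ID in the other table. Arm 1 sampled the hearts of 6 pigs at 0, 12, 24 and 48 h of storage, with 24 libraries in all: pigs 1, 3 and 5 carry the label SCS, and pigs 2, 4 and 6 the label HOPE. Those abbreviations are not expanded in the labels and are usually read as static cold storage and as hypothermic oxygenated perfusion. Arm 2 hearts were stored and then perfused warm on a machine for 2 h (NMP, normothermic machine perfusion), with 2 libraries for each HOPE time of 3, 24 and 48 h and a single library for 24 h of SCS. No strain, age or sex is stated for the pigs. The labels name cardiomyocytes as the cell type, but whole biopsies were sequenced, so fewer cells of a type and less RNA per cell cannot be told apart.

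Mitochondria keep their own ribosome, which makes the few hydrophobic proteins of oxidative phosphorylation that mitochondrial DNA still encodes. All its proteins are encoded in the nucleus, translated in the cytosol and imported, and they assemble on ribosomal RNAs transcribed inside the organelle. The small subunit holds the decoding centre, and the large subunit holds the peptidyl transferase centre and a tunnel whose exit lies at the inner membrane. Cardiac muscle is rich in mitochondria, and inherited defects in MRPL3, MRPL44, MRPS14 and MRPS22 cause cardiomyopathy. A few names mislead: the proteins of MRPS30 and MRPS18A sit in the large subunit, and MRPS36 encodes a protein now assigned to the oxoglutarate dehydrogenase complex rather than to the ribosome.

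Arm 1 values are normalized counts, that is, read counts divided by a size factor for each library, and recovered depths were 19722065 to 35099406 reads per library. Arm 2 values are TPM, which are divided by gene length and sum to 1000000 in each library, and their depth is unknown. All 70 arm 1 members passed the minimum mean of 10 for testing, and 37 of 47 did so in arm 2. The cardiomyocyte list (12 of 14 markers found, none at 0 in any arm 1 library) summed to between 1019624 and 1837505 normalized counts over the arm 1 libraries. The 13 mitochondrially encoded mRNAs took 29.0% to 62.1% of the arm 1 signal in 23 libraries and 82.4% in the SCS 48 h library of pig 5. Fold changes are differences of log2(value + 1) with their standard errors. A gene is said to have passed the test at an adjusted p under 0.05 (limma, Benjamini-Hochberg over all genes tested).

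Across the 24 arm 1 libraries the members moved largely as a group. The correlation of a member with the median of the other members had a median of 0.64 over the 70 genes, and it was over 0.5 for 45 of them (64.3%). Among the other 14071 genes tested, 8.82% reached this value against the members' median. These are descriptions, since the libraries share pigs and normalization. The gene nearest to the group was MRPL18 (r = 0.92), whose protein binds in the central protuberance, the crown of the large subunit. MRPL21 (0.87) and MRPS18B (0.86) followed. The loosest fits were MRPL55 (0.16), MRPL27 (0.18), MRPL35 (0.18), MRPL41 (0.19) and MRPL57 (0.23), all of the large subunit. The SD of log2 values over the 24 libraries had a median of 0.30 for members and 0.43 for other genes. Members had mean normalized counts of 110 (MRPS18C) to 3297 (MRPL12), while other genes were tested from a mean of 10. These sets were not matched for level, so the lower SD is not shown to be a trait of the members.

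No member passed the test for a change with SCS storage time. At 12 h the median log2 fold change of the 70 members against 0 h was 0.12, with 59 members above 0, while the median of all 14141 genes tested was -0.01. At 24 h the members' median was 0.04 and at 48 h it was 0.02. In each of these comparisons limma called 0% of all genes, and edgeR and DESeq2 also called 0 members. At an unadjusted p under 0.05, limma counted 0 members at 12 h, 1 higher at 24 h, and 3 higher and 2 lower at 48 h. The flat averages hide pigs that went different ways. In pig 1, 65 of 70 members were above their 0 h value at 48 h, with a median change of 0.52. In pig 3 the split was 33 above and 37 below (median -0.04), and in pig 5 it was 13 above and 57 below (median -0.43). The summed cardiomyocyte markers moved in the same order over these 48 h, by 0.66 on the log2 scale in pig 1, -0.10 in pig 3 and -0.29 in pig 5. The mitochondrially encoded share went from 35.9% to 48.0%, from 38.7% to 60.0% and from 52.5% to 82.4% in the same pigs. The part of these in the members' changes was not tested.

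**Figure D1:**
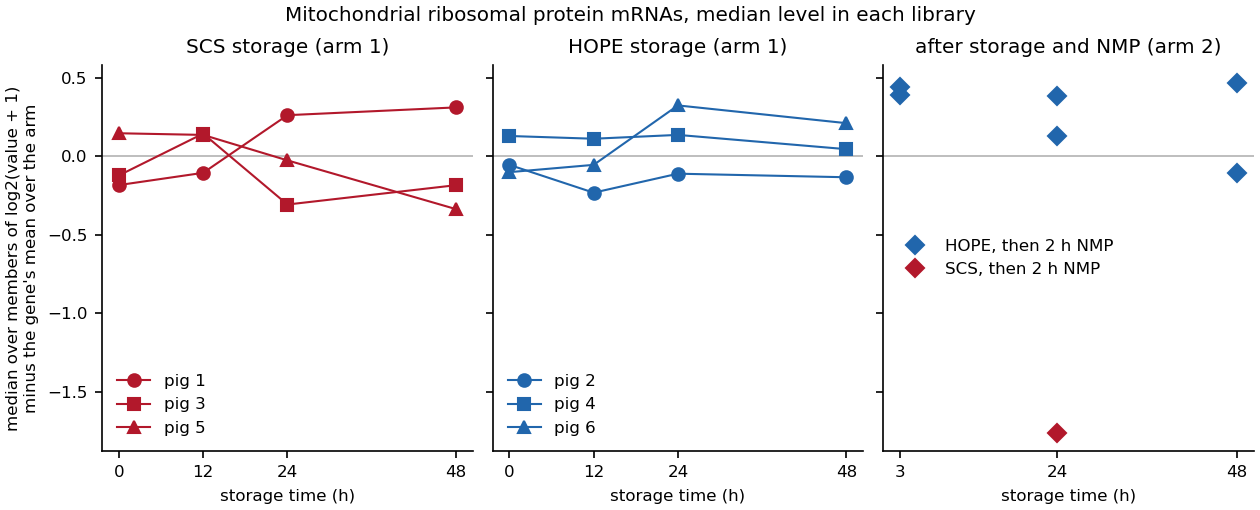
Median over members of log2(value + 1) minus each gene's mean over its arm, for each library, against storage time in hours; lines join the 4 biopsies of a pig in arm 1, and arm 2 points are single libraries. At 48 h of SCS pig 1 lies above and pig 5 below its own 0 h value, and the SCS library after NMP lies far under the HOPE libraries.

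Among single genes the widest SCS change was that of MRPL33 (ENSSSCG00000034129), which encodes a small protein of the large subunit (chr3:111428850-111438735, Sscrofa11.1). Its normalized counts at 0 h were 1140, 1025 and 1655 in pigs 1, 3 and 5, and at 48 h they were 979, 699 and 591. All 3 pigs were lower at 48 h, and the 2 groups do not overlap. The log2 fold change was -0.75 ± 0.25 (SE, n = 3 pigs) with a limma adjusted p of 0.475. With the pig as a block it was -0.75 ± 0.19 and passed, with an adjusted p of 0.0495. The block called 1.1% of all genes lower here, and MRPL33 was the only one of 70 members that it called.

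At the other end of the SCS 48 h changes were MRPL57 (0.59 ± 0.27, adjusted p = 0.611) and MRPL12 (0.59 ± 0.27, adjusted p = 0.610). MRPL12 belongs to the flexible stalk that recruits translation factors, and its product has also been reported to bind the mitochondrial RNA polymerase. Its values were 2583, 2477 and 3771 normalized counts at 0 h in pigs 1, 3 and 5, and 4197, 4212 and 4616 at 48 h, so that the 48 h values lie above all 0 h values. The second lowest gene was MRPL3, an early-binding protein of the large subunit core, at -0.55 ± 0.26 (adjusted p = 0.611). None of these 3 genes passed with or without the block. Over all members, 11 were higher in all 3 SCS pigs at 48 h, against 13.9% of all genes tested, and 4 were lower in all 3, against 16.2%. The 4 were MRPL33, MRPL50, MRPS10 and MRPS18C. At 12 h the extremes were MRPL20 (0.44) and MRPS23 (0.38) above, and MRPL39 (-0.28) and MRPL47 (-0.20) below. At 24 h they were MRPL57 (0.52) and MRPS2 (0.44), and MRPL39 (-0.46) and MRPS18C (-0.43).

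HOPE storage gave 0 members past the threshold at any time, among 0% of all genes called at 12, 24 and 48 h, and edgeR and DESeq2 again called 0 members. The unadjusted counts were 0 at 12 h, 1 higher at 24 h and 0 at 48 h. Median log2 fold changes of members against 0 h were -0.02 at 12 h, 0.14 at 24 h and 0.04 at 48 h, beside 0.01, 0.02 and 0.01 for all genes. The 24 h value rests on pig 6, in which 65 of 70 members were higher and the median was 0.43. Pigs 2 and 4 had medians of -0.03 each at that time, and without pig 6 the median was -0.01. The summed cardiomyocyte markers of pig 6 stood 0.62 higher on the log2 scale at 24 h, while pigs 2 and 4 had changes of 0.13 and -0.08. The part of this in the members' values was not tested. At 48 h, 11 members were higher in all 3 HOPE pigs, against 18.5% of all genes, and 6 were lower in all 3, against 13.8%.

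The genes at the top of the HOPE series were alike at all 3 times. MRPS27, a small subunit protein that is specific to mitochondria, had log2 fold changes of 0.32 ± 0.39, 0.59 ± 0.39 and 0.56 ± 0.39 at 12, 24 and 48 h. MRPL37 gave 0.27, 0.59 and 0.35, and MRPS22, another mitochondria-specific small subunit protein, gave 0.31, 0.40 and 0.29. MRPL55 was the lowest member each time, at -0.34, -0.23 and -0.32. These 3 comparisons share the 0 h libraries, so the repeat is not independent. MRPL34 at 12 h (-0.30), MRPS26 at 24 h (-0.21) and MRPL21 at 48 h (-0.24) were the second lowest. The RefSeq span of MRPS27 overlaps that of PTCD2 and the span of MRPS22 overlaps that of COPB2. The sources used here do not state whether reads were counted by strand, so reads of overlapping genes may be shared.

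Between HOPE and SCS hearts, 1 member passed the test, MRPS5, at 24 h and at 48 h. MRPS5 (ENSSSCG00000008113, chr3:46137566-46169403, Sscrofa11.1) encodes a conserved protein of the small subunit that lines the mRNA entry site. At 24 h its normalized counts were 771, 399 and 404 in SCS pigs 1, 3 and 5 and 1014, 1160 and 1097 in HOPE pigs 2, 4 and 6. Every HOPE heart was above every SCS heart. The difference, HOPE minus SCS, was 1.12 ± 0.28 with an adjusted p of 0.0437. At 48 h the values were 784, 365 and 488 in SCS and 1146, 999.8 and 874 in HOPE, a difference of 0.95 ± 0.28 (adjusted p = 0.0469). The gap was there in size before storage: at 0 h the SCS values were 548, 401 and 621 and the HOPE values 1052, 900.2 and 599. That 0 h difference was 0.68 ± 0.28 (adjusted p = 0.665), with pig 6 of HOPE under pig 5 of SCS. At 12 h it was 0.75 ± 0.28 (adjusted p = 0.254).

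This is 1 of 70 members at 24 h, where 2.04% of all genes passed and 1.27% passed as higher in HOPE. It is again 1 of 70 at 48 h, where 6.25% of all genes passed, 3.84% as higher and 2.41% as lower. The members' share was thus near or under the background. At 0 h no member passed (0% of all genes), and at 12 h none did either (0.0141% of all genes). The unadjusted counts at 0 h were 2 higher, and at 12 h 1 higher and 5 lower, and edgeR and DESeq2 called 0 members at both times. The call of MRPS5 did not hold in edgeR, with adjusted p-values of 0.0554 at 24 h and 0.0566 at 48 h. Leaving out pig 2, 3, 4 or 5 ended it at both times, with log2 differences of 0.96 to 1.18 at 24 h and 0.69 to 0.95 at 48 h. Without the SCS 48 h library of pig 5 alone, the 48 h value was 0.90 (adjusted p = 0.151).

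Leaving out pig 1 or pig 6 raised the counts of members called. Without pig 1, 12 members were called higher at 24 h (17.1% of members, beside 19.3% of all genes), and 18 higher and 1 lower at 48 h (27.1%, beside 23.3%). Without pig 6, 4 members were called lower at 12 h (5.71%, beside 10.1%). At 24 h 1 was then called higher and 6 lower (10%, beside 17%), and at 48 h 5 higher and 9 lower (20%, beside 22.4%). Without the 0 h library of HOPE pig 6 alone, 4 were called higher and 1 lower at 48 h (7.14%, beside 10.4%). The share called among all genes grew with that of members in each of these fits. These shares of all genes count calls in either direction. Cell markers differed between the groups as well. At 48 h the cardiomyocyte markers summed to 1043518 and 1084288 normalized counts in SCS pigs 3 and 5, to 1837505 in pig 1, and to 1628359 to 1805957 in HOPE. T and NK cell markers summed to 814 to 1330 in SCS and 281 to 503 in HOPE, with 5 of 10 lower in HOPE and 0 found markers at 0. Fast skeletal muscle markers (4 of 7 found, MYH4 at 0 in most libraries) summed to 509 to 1379 in SCS and 30.9 to 126 in HOPE at 48 h, and to 531 to 1206 and 69.4 to 226 at 0 h. Red cell markers summed to 36.4 to 103 in SCS and 170 to 690 in HOPE at 48 h. Pericyte and smooth muscle markers summed to 22032 to 38509 in SCS and 13263 to 21741 in HOPE. The other 4 lists overlapped between the groups at 48 h. The part of these in the members' differences was not tested.

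At 48 h members differed in both directions. With the pig as a block, 5 members passed, 3 higher in HOPE (6.88% of all genes) and 2 lower (4.63% of all genes). The higher ones were MRPS5 (limma adjusted p = 0.0251 with the block), MRPS35 (0.82 ± 0.26, adjusted p = 0.0463) and MRPL3 (0.81 ± 0.26, adjusted p = 0.0451). The lower ones were MRPL55 (-0.97 ± 0.27, adjusted p = 0.0251) and MRPL52 (-0.85 ± 0.23, adjusted p = 0.0251). Without the block MRPS35, MRPL3, MRPL55 and MRPL52 had adjusted p-values of 0.0525 to 0.0787. The 5 members that passed with the block are 7.14% of members, beside 11.5% of all genes with the block. DESeq2 called 5 members, with MRPL49 (0.57, adjusted p = 0.0495) in place of MRPS35, and edgeR called 0. The share of all genes that DESeq2 called is not given here, so its count is not set against a background.

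The counts behind these calls were as follows. MRPL3 (ENSSSCG00000011179, chr13:984985-1024185) had 1164, 850.4 and 503 normalized counts in SCS pigs 1, 3 and 5 at 48 h and 1282, 1597 and 1302 in HOPE pigs 2, 4 and 6. All HOPE values lay above all SCS values. At 0 h the SCS pigs had 1102, 1225 and 1149 and the HOPE pigs 1424, 1423 and 908, which overlap. MRPS35 (ENSSSCG00000000547, chr5:45973698-46023003), a mitochondria-specific protein of the small subunit, had 421, 282 and 216 in SCS and 598, 636 and 372 in HOPE at 48 h. Its groups overlap through pigs 1 and 6.

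MRPL55 (ENSSSCG00000029050, chr2:51243257-51247626), the mitochondrial counterpart of bacterial protein bL31, went the other way. It had 1099, 968 and 1330 normalized counts in SCS pigs 1, 3 and 5 at 48 h, and 465, 563 and 721 in HOPE pigs 2, 4 and 6. MRPL52 (ENSSSCG00000002040, chr7:76187447-76191647), of the central protuberance, had 890.3, 774 and 775 in SCS and 337, 495 and 544 in HOPE. In both genes every SCS heart was above every HOPE heart. At 0 h the groups overlapped in both, with 615 to 1247 in SCS and 519 to 1050 in HOPE for MRPL55, and 484 to 727 and 355 to 618 for MRPL52.

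**Figure D2:**
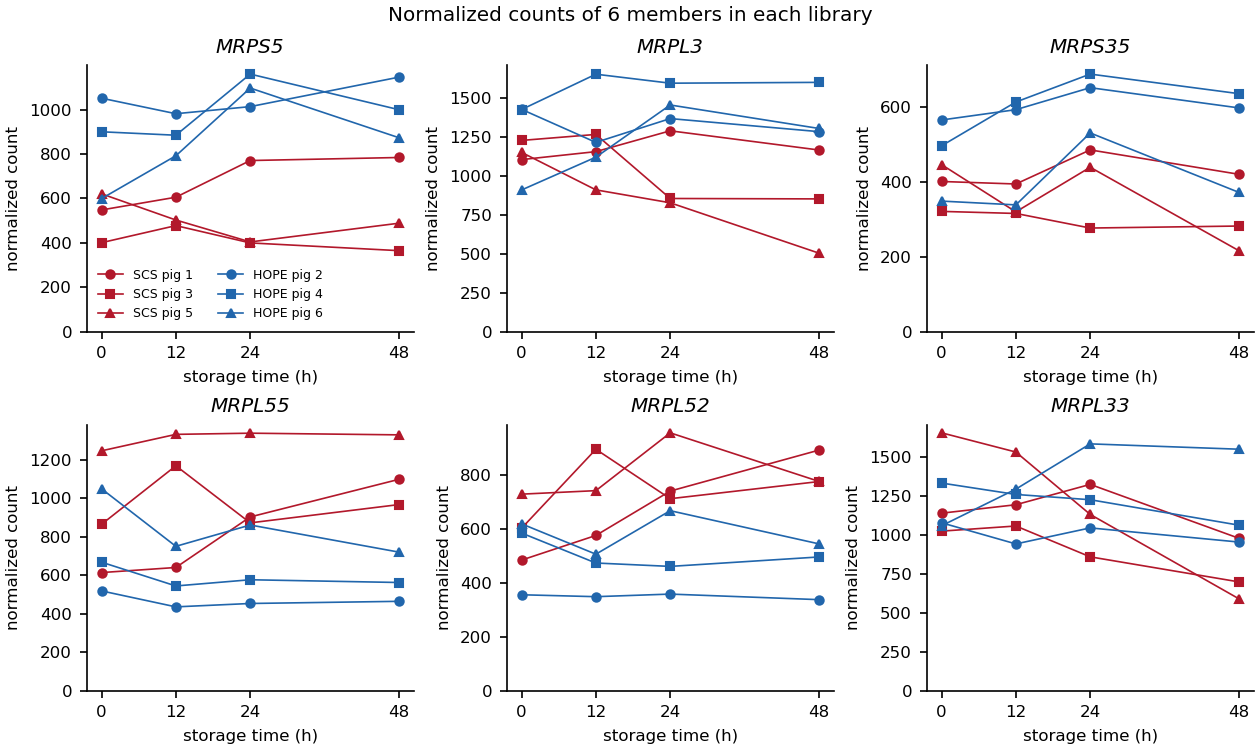
Normalized counts of MRPS5, MRPL3, MRPS35, MRPL55, MRPL52 and MRPL33 in each arm 1 library against storage time in hours, with 1 line per pig, SCS in red and HOPE in blue. At 48 h the HOPE pigs lie above the SCS pigs for MRPS5 and MRPL3 and under them for MRPL55 and MRPL52, and MRPL33 is lower at 48 h than at 0 h in the 3 SCS pigs.

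HOPE and SCS groups that did not overlap were no more frequent among members than among all genes at 0, 12 and 24 h, and at 48 h for members higher in HOPE. At 0 h, 2 members were higher in all HOPE than in all SCS hearts (2.86%, beside 5.23% of all genes) and 1 was lower (1.43%, beside 6.19%). The counts at 12 h were 5 higher (7.14%, beside 11.6%) and 6 lower (8.57%, beside 12%). At 24 h they were 8 higher (11.4%, beside 13.9%) and 4 lower (5.71%, beside 12.9%). At 48 h, 6 were higher (8.57%, beside 10.5%) and 9 lower (12.9%, beside 10.2%). The 9 lower members at 48 h were MRPL12, MRPL17, MRPL30, MRPL36, MRPL41, MRPL51, MRPL52, MRPL55 and MRPL57, all of the large subunit. The 6 higher were MRPL3, MRPL10, MRPL49, MRPS5, MRPS10 and MRPS18C. The extremes of the fit at 48 h were MRPS27 (1.07 ± 0.39, adjusted p = 0.0885) and MRPS5 at the top and MRPL55 and MRPL52 at the bottom. The first 2 were also the highest at 24 h and at 12 h. At 0 h MRPS5 and MRPL54 (0.43) were highest, and MRPL27 (-0.44) and MRPL30 (-0.37) lowest.

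**Figure D3:**
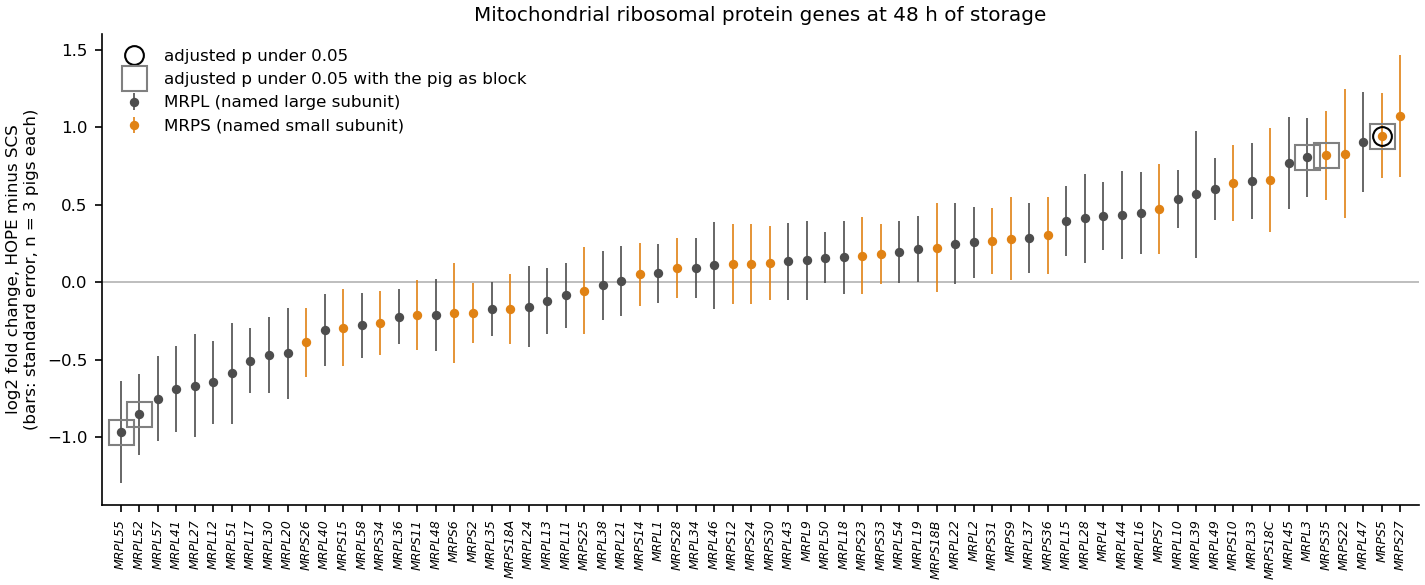
Log2 fold change, HOPE minus SCS at 48 h, of the 70 members in order of size, with bars of 1 standard error (n = 3 pigs in each group); dark points are MRPL genes and orange points MRPS genes. The circle marks MRPS5, which passed the test, and squares mark the 5 members that passed with the pig as a block, 3 above 0 and 2 below.

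By role, the medians of HOPE minus SCS at 48 h ran from the tunnel exit (0.43, 5 genes) to the central protuberance (-0.24, 8 genes). The genes grouped here under the exit were MRPL22, MRPL24, MRPL44, MRPL45 and MRPL47, and the medians depend on this grouping. Of these, MRPL45 encodes the protein that anchors the ribosome to the inner membrane. They ranged from -0.16 to 0.90, the top being MRPL47 (adjusted p = 0.08). The central protuberance genes ranged from -0.85 (MRPL52) to 0.16. MRPL58, in this group, derives from a peptidyl-tRNA hydrolase and had -0.28 ± 0.21. The 3 stalk genes gave -0.65 (MRPL12), -0.08 (MRPL11) and 0.53 (MRPL10). Small subunit proteins had medians of 0.12 for the 13 with a bacterial counterpart and 0.20 for the 10 that are specific to mitochondria. The members' median was 0.12, beside 0.02 for all genes, with 43 of 70 above 0. The order of exit and protuberance was the same at 24 h (0.53 and -0.06) and, before storage, at 0 h (0.18 and -0.12). Of the 10 genes followed in every comparison for their roles in disease or structure, none passed at 48 h, from MRPL12 to MRPS22 (0.83 ± 0.42). Among these, MRPS14 (0.05 ± 0.20), MRPS30 (0.13 ± 0.24), MRPS18A (-0.17 ± 0.23) and MRPS18B (0.22 ± 0.29) were within 1 standard error of 0, and MRPL44 (0.43 ± 0.29) and MRPS18C (0.66 ± 0.34) were not.

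The direct test of whether members changed from 0 to 48 h otherwise in HOPE than in SCS called 0 members and 0% of all genes without the block. edgeR and DESeq2 called 0 members. With the pig as a block limma also called 0 members (smallest adjusted p of a member 0.191), beside 3 of 14141 genes higher and 15 lower. In the fit without the block 1 member was higher at an unadjusted p under 0.05, MRPL33, at 0.77 ± 0.35. MRPL3 followed at 0.72 ± 0.36, and the lowest were MRPL57 (-0.74 ± 0.39) and MRPL12 (-0.70 ± 0.38). The members' median was 0.04 and that of all genes 0.06. So the 48 h differences of members between HOPE and SCS are not shown to have arisen during storage.

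The summed counts of the 23 members whose proteins sit in the small subunit were set against those of the 46 in the large subunit, with MRPS30 and MRPS18A counted as large and MRPS36 left out. In SCS pigs 3 and 5 this ratio was 0.415 and 0.427 at 0 h and 0.393 and 0.393 at 48 h. In SCS pig 1 it was 0.466 at 0 h and 0.458 at 48 h. HOPE hearts had 0.439 to 0.451 at 0 h and 0.445 to 0.475 at 48 h. Pigs 3 and 5 thus lay under all HOPE hearts at both times, before storage too, and pig 1 did not. The ratio is not per length and compares libraries, not subunit levels.

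The differences of members were related in part to the span of the gene on the chromosome. RefSeq gives a span for 69 of the 70 genes. At 48 h the 23 members with the shortest genes (up to 5.30 kb) had a median HOPE minus SCS difference of -0.22, and the 23 with the longest (from 15.7 kb) had 0.27. Over the 69 genes Spearman's rho between span and log2 difference was 0.45, beside 0.20 over the other 11394 tested genes with a span (81.0% of them). At 0 h it was 0.17 in members, at 12 h 0.52 and at 24 h 0.52. The values at 48 h stayed between 0.43 and 0.46 when any 1 pig was left out. Genes are not independent replicates, and these correlations are descriptions.

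The 2 storage conditions ran opposite ways within pigs, except that HOPE pig 2 was near 0. From 0 to 48 h of SCS rho was -0.33, -0.44 and -0.36 in pigs 1, 3 and 5, so that short genes stood relatively higher at 48 h. From 0 to 48 h of HOPE it was 0.07, 0.50 and 0.38 in pigs 2, 4 and 6. Over the fit, rho was -0.46 in SCS (beside -0.23 for other genes) and 0.46 in HOPE (beside 0.13). For HOPE, rho was 0.51 without all biopsies of pig 2, 0.32 without those of pig 4 and 0.38 without those of pig 6. Without the 0 h library of pig 6 alone it was 0.06, in a contrast that sets 3 pigs at 48 h against 2 at 0 h. In SCS, leaving out the 48 h library of pig 5 gave -0.37. Between HOPE and SCS at 48 h, MRPL41 (0.675 kb), MRPL57 (0.984 kb) and MRPL52 (4.20 kb) are examples of short genes that followed the relation. MRPS27 (134 kb), MRPS22 (225 kb) and MRPL3 (39.2 kb) are long ones that did. Others did not follow it. MRPL49 (5299 bases) was higher in all HOPE than in all SCS hearts at 48 h, and MRPS30 (90130 bases) had a difference within its standard error. Transcript length, exon number and GC content were not used here, and their part in the relation was not tested.

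**Figure D4:**
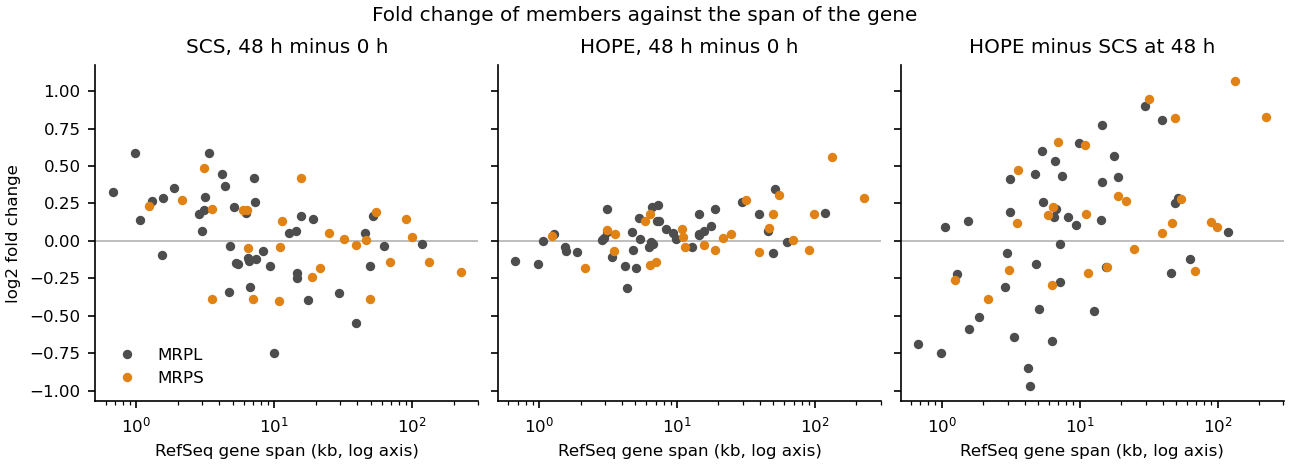
Log2 fold change of 69 members against the RefSeq span of the gene in kb (log axis), for SCS 48 h minus 0 h, HOPE 48 h minus 0 h and HOPE minus SCS at 48 h; dark points are MRPL and orange points MRPS genes. Points slope down in SCS (rho = -0.46) and up in the other 2 panels (0.46 and 0.45); the panels share libraries.

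Among genes that work with the mitochondrial ribosome, some in each of 5 lists passed as higher in HOPE than in SCS at 24 h or 48 h. Of all genes, 1.27% did at 24 h and 3.84% at 48 h. With the block, 817 of 14141 genes passed as higher at 24 h and 973 (6.88%) at 48 h. At 0 h, before storage, 0 genes of these lists passed. The medians of HOPE minus SCS were then already 0.51 for synthetases, 0.31 for transcription and RNA processing, 0.23 for assembly and 0.21 for translation factors. The test of a different change from 0 to 48 h called 0 genes in each list. Of 5 ribosomal subunits with other names, 0 passed at 24 h or 48 h, and the block called 1 higher at each time. PTCD3, a small subunit protein, was the highest of these at 48 h (1.11 ± 0.34, adjusted p = 0.0541, and 0.0199 with the block), and CHCHD1 the lowest (-0.71 ± 0.27). Of 13 translation factors, 1 was higher in HOPE at 24 h and 2 at 48 h, and with the block 6 and 3. They were GUF1 (0.97 ± 0.21, adjusted p = 0.0319) at 24 h, and the elongation factors GFM1 (1.33 ± 0.39, adjusted p = 0.0471) and TSFM (1.03 ± 0.25, adjusted p = 0.0298) at 48 h. TSFM had 477 ± 187 normalized counts (SD, n = 3) in SCS and 930 ± 66.1 in HOPE. Of 27 ribosome assembly and rRNA modification genes, 3 were higher at 48 h, RCC1L (1.21 ± 0.34), NSUN4 (1.18 ± 0.33) and FASTKD2 (0.84 ± 0.25), and with the block 6. The median difference at 48 h was 0.53 for translation factors and 0.29 for assembly genes, beside 0.12 for the members.

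Aminoacyl-tRNA synthetases, which charge the tRNAs that the ribosome reads, had a median of 0.74 at 48 h, with 3 of 20 higher, and of 0.51 at 0 h. These were LARS2 (1.33 ± 0.37), SARS2 (1.05 ± 0.27) and YARS2 (2.07 ± 0.56), and at 24 h it was AARS2 (0.92 ± 0.16). At 0 h LARS2 had 405 ± 34.1 normalized counts in SCS and 763 ± 397 in HOPE, YARS2 62.2 ± 22.95 and 117 ± 61.4, and SARS2 120 ± 35.7 and 195 ± 64.5, each with overlapping groups. AARS2 had 267 ± 3.41 and 415 ± 34.3 (SD, n = 3), and its groups did not overlap at 0 h. Of 17 genes for mitochondrial transcription and RNA processing, 2 were higher at 24 h, the RNA polymerase POLRMT (0.69 ± 0.17) and TEFM (1.44 ± 0.34). At 48 h 5 were higher, with TEFM (1.57 ± 0.34, adjusted p = 0.0220) and LRPPRC (1.19 ± 0.35, adjusted p = 0.0499), which stabilizes mitochondrial mRNAs, among them, beside ELAC2, FASTKD5 and SUPV3L1. With the block the synthetase counts were 5 and 6, and those of transcription genes 5 and 5. Of all 14141 genes the block called 817 higher at 24 h and 973 at 48 h. Of 9 regulators, PPARGC1B, a coactivator of mitochondrial biogenesis, was higher at 24 h, with 121 ± 56.6 normalized counts in SCS and 352 ± 107 in HOPE (SD, n = 3; adjusted p = 0.0462). In these 6 lists 0 genes were lower in HOPE at 24 h or 48 h.

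Some of the mRNAs that this ribosome translates were lower in HOPE. Of the 13 mitochondrially encoded mRNAs, 6 were lower in HOPE than in SCS at 48 h, with a median log2 difference of -2.06, and ND4L was the lowest (-2.43 ± 0.41, adjusted p = 0.00874). From 0 to 48 h of SCS their median change was 1.55, with 0 past the threshold and 10 higher with the block. Because these transcripts take so much of the signal, dividing by the total moves all nuclear genes. On total-count scaling the median of all genes shifted to -0.99 and that of members to -0.96 for SCS 48 h against 0 h, a gap of 0.03 between them. There 31 members were called lower (44.3%, beside 39.5% of all genes). For HOPE minus SCS at 48 h the medians became 1.12 for all genes and 1.24 for members, with 57 members higher (81.4%, beside 57.4%). The shares of all genes, 39.5% and 57.4%, count calls in either direction.

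After NMP, no member passed the test for a difference between HOPE storage times. The comparisons of 24 h with 3 h and of 48 h with 3 h called 0 members and 0% of 4388 genes tested, and that of 48 h with 24 h called 0 members and 0.0684% of genes. The unadjusted counts were 1 lower, 1 lower and 0, and there is no other tool for TPM. The labels do not say that the numbered libraries came from separate animals, so these p-values measure the spread between samples. Median log2 fold changes of the 37 members tested were -0.11, -0.24 and -0.07, beside 0.22, 0.02 and -0.19 for all genes. MRPL16, whose bacterial counterpart sits near the tRNA channel, was among the lowest 2 each time, at -0.62, -1.09 ± 0.29 (adjusted p = 0.375) and -0.47. Its TPM were 32.6 and 44.0 after 3 h, 22.7 and 26.0 after 24 h, then 14.7 and 20.1 after 48 h, and these groups do not overlap. MRPL16 was named for its low fold changes, and the share of all genes with such groups is not given here. So no trend with storage time is shown. MRPL28 was lowest for 24 h against 3 h (-0.86 ± 0.34) and MRPS34 for 48 h against 24 h (-0.59 ± 0.28), and MRPS34 was second lowest for 48 h against 3 h (-0.62). The highest were MRPL47 (0.24) and MRPS10 (0.16), then MRPL47 (0.39) and MRPS33 (0.24), then MRPL28 (0.38) and MRPL1 (0.30). The 2 HOPE 48 h libraries differed from each other, with summed members of 1310 and 1943 TPM. Leaving out one or the other moved the median of 48 h against 3 h from -0.54 to 0.08.

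TPM are per length, so levels can be set in order within arm 2. In the 2 HOPE 24 h libraries the highest members were MRPS6 (131 and 140 TPM), MRPL24 (124 and 139), MRPL38 (110 and 128) and MRPS33 (98.4 and 137). Each overlaps with the next in this order, and MRPS6 does not overlap with MRPL38. MRPL24 lies at the tunnel exit and MRPL38 in the central protuberance. The lowest tested were MRPL47 (9.70 and 13.4 TPM) and MRPS35 (12.5 and 11.9), which overlap.

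The library after 24 h of SCS and NMP was far lower in nearly all members. Its members summed to 369 TPM, against 1544 and 1808 in the 2 HOPE 24 h libraries and 1310 to 1943 in all 6 HOPE libraries. Relative to nuclear genes alone they took 0.0815%, against 0.249% to 0.373%. Of 37 members tested, 36 passed the test as lower than in HOPE 24 h, beside 54.2% of all genes called and 51.8% called lower. MRPL1 was the exception, with 11.09 TPM against 20.7 and 30.2 (-1.11 ± 0.47, adjusted p = 0.0729). The members' median was -1.98 and that of all genes -1.12. The members tested had to reach a mean that the HOPE libraries largely set, and the single SCS library was taken to have the spread of the HOPE groups.

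The 3 largest drops were in MRPL2, MRPS6 and MRPL30. MRPL2, next to the peptidyl transferase centre, had 39.8 and 47.4 TPM in HOPE 24 h and 5.29 in SCS 24 h (-2.82 ± 0.44, adjusted p = 0.00191). MRPS6, of the small subunit platform, had 131 and 140 against 18.9 (-2.77 ± 0.36, adjusted p = 0.000943). MRPL30 had 50.7 and 90.2 against 10.7 (-2.56 ± 0.51, adjusted p = 0.00524). In all 3 the SCS library lay under every HOPE library. The span of MRPS6 overlaps that of SLC5A3 and that of MRPL2 overlaps KLC4. MRPL3 (8.48 against 24.7 and 39.6 TPM) and MRPS18A (6.52 against 19.6 and 25.5) were also lower, with log2 fold changes of -1.77 ± 0.44 and -1.64 ± 0.40. The smallest drops that passed were MRPS34 (-1.17), MRPL10 (-1.20) and MRPS2 (-1.24). MRPS5, the gene higher in HOPE in arm 1, had 5.66 TPM in the SCS library and 17.2 to 25.0 in the 6 HOPE libraries.

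All 37 tested members were lower in the SCS library than in each of the 6 HOPE libraries, which held for 66.5% of the genes tested. The 10 members under the minimum were MRPL19, MRPL27, MRPL35, MRPL44, MRPL45, MRPL49, MRPL50, MRPL55, MRPS18B and MRPS31. Of these 7 were lower than all 6 HOPE libraries as well, for example MRPL44 (1.90 against 4.64 to 13.8 TPM) and MRPS18B (0.831 against 4.11 to 7.70). The other 3 were at or near 0 throughout: MRPL45 was listed at 0 in all 7 libraries, MRPL55 reached 0.224 TPM in 1 library, and MRPL27 reached 0.876. In arm 1 the same IDs had means of 1121, 833 and 551 normalized counts. Tested with no minimum, 23 of 46 members passed as lower, and the share of all genes in that fit is not given here. With quantile normalization 7 of 37 members passed as lower, where 20.9% of all genes were called. Quantile normalization moved the median of all genes from -1.12 to 0.03 and that of members to -0.75.

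Cell type markers moved with this library. Of 9 cardiomyocyte markers found of 14, none at 0, 8 were lower than in HOPE 24 h, with a median of -4.48. They summed to 2517 TPM in the SCS library and to 39449 to 63192 in the 6 HOPE libraries. Fibroblast markers summed to 2781 TPM against 579 to 1245, with 4 of 6 tested higher and none at 0. Red cell genes summed to 6161 TPM against 34.2 to 3125. Endothelial markers summed to 228 TPM against 285 to 591. T and NK cell markers summed to 88.7 TPM against 16.3 to 56.6, and adipocyte markers to 325 against 76.3 to 228. Fast skeletal muscle markers (3 found, 2 at 0 throughout) summed to 2.19 TPM against 7.19 to 116. Sums of pericyte and smooth muscle markers (500 TPM) and of macrophage and monocyte markers (52.4 TPM) lay within the HOPE ranges of 281 to 657 and 25.5 to 86.9. The members' median drop was thus smaller than that of cardiomyocyte markers, and their part in the members' result was not tested. Other genes of mitochondrial translation were also called lower in the SCS library, where 51.8% of all genes tested were. They were 4 of 4 tested assembly genes and 4 of 4 tested transcription and RNA processing genes. Nearer to the share of all genes were 2 of 4 translation factors, 2 of 3 regulators and 2 of 3 subunits with other names. The 1 synthetase tested, TARS2, did not pass (-0.55 ± 0.37, adjusted p = 0.228). Under the minimum mean, and picked after their values were seen, SARS2 had 4.21 TPM in the SCS library and 2.47 and 2.85 in HOPE 24 h, and GUF1 11.6 against 8.30 and 10.5. TUFM, the elongation factor that brings tRNAs to the ribosome, had the largest drop among these (-3.73 ± 0.40, adjusted p = 0.000516). The 13 mitochondrially encoded mRNAs had a median of 0.20, with ND4L lower (-0.81 ± 0.26).

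**Figure D5:**
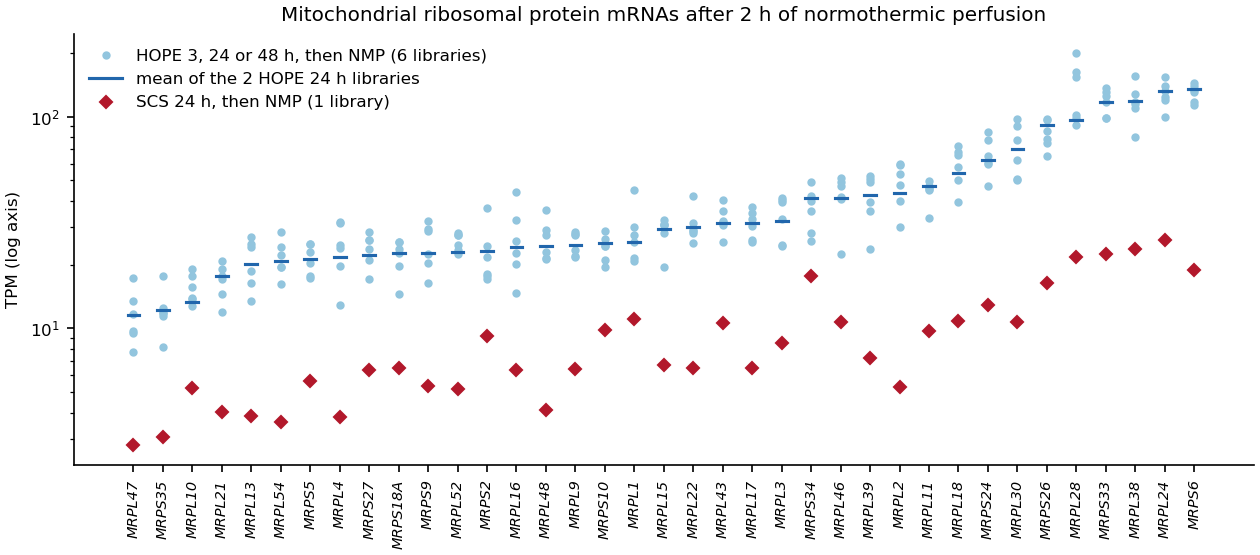
TPM (log axis) of the 37 tested members after 2 h of NMP, in order of their mean in the HOPE 24 h libraries; light blue points are the 6 HOPE libraries, blue bars the mean of the 2 HOPE 24 h libraries and red diamonds the single SCS 24 h library. Each red diamond lies under all 6 blue points of its gene.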

How the data were processed

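The deposited arm 1 table held normalized counts, a signal in which the authors divided gene counts by a size factor per library, per the file headers; dividing each column by its smallest step gave whole reads for 100% of values (tolerance 1e-06). The deposited arm 2 values were read as TPM, since each column sums to 1000000. The submitters' processing notes list, without roles, the aligners STAR 2.5.2b and HISAT2 2.2.1, trimming by Trimmomatic 0.36, Subread 1.5.2, DESeq2, counting by featureCounts 2.0.6, and the build Sscrofa11.1. Another 11 arm 2 columns match no sample and were not used.

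Each arm was fitted once with limma 3.58.1 in R 4.3.3 on log2(value + 1), for genes with a mean of at least 10 (14141 and 4388). This design had assumed normalized counts in both arms. edgeR 4.0.16 and DESeq2 1.42.0 were run on recovered reads. The same pig gave 4 biopsies, and deviations from group means correlated in all 36 same-pig pairs (r of 0.232 to 0.73), and a second fit took the pig as a block (fixed within pigs; random, correlation 0.44, between HOPE and SCS). The code was tested on simulated data. Positions are RefSeq's on Sscrofa11.1, by symbol. Named were members past the threshold (or the 3 largest changes each way), the 2 highest and 2 lowest where fewer than 3 passed, and 10 genes with known roles. Members and lists were chosen with earlier results of these data known.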

Additional observations from a re-analysis of the deposited data

How the results depend on the processing

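Of the counts of members called in arm 1 under an alternative, 167 stayed on the side of the main count and within 1.5 times of it, 18 fell to 0, 10 moved further and 3 rose from 0; in arm 2, 44 stayed and 3 moved. No called fold change turned its direction, while uncalled medians near 0 did change sign. On total-count scaling the members' median log2 difference was -0.1466, -0.3039 and -0.9569 for SCS at 12, 24 and 48 h, and 0.3658, 0.6032 and 1.236 for HOPE minus SCS at those times, with 1.027 for the difference in change; all genes shifted with them. Members called at 24 h between HOPE and SCS were 0 under total-count scaling, quantile normalization, a mean above 0, a fit of the groups compared alone and edgeR. At 48 h they were 57 under total-count scaling, 5 without the 13 mitochondrially encoded genes in the total, 0 under quantile normalization, a mean above 0, the groups compared alone and edgeR, 2 with a mean of at least 50, and 5 with DESeq2. Among those above 0 at 48 h, the share of all genes called is given above for total-count scaling alone. For SCS at 48 h against 0 h total-count scaling called 31. Leaving out 1 pig or library gave 0 to 4 members at 12 h, 0 to 12 at 24 h and 0 to 19 at 48 h.

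With the pig as a replicate block, 5 members were called between HOPE and SCS at 48 h and 1 in SCS from 0 to 48 h; it changed no other count of members called. In arm 2, library numbers correlated from 0.09 to 0.384 in 6 pairs, and a replicate block called 0 members; the SCS comparison has none, for want of pairs.

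After NMP, SCS against HOPE at 24 h called 7 members under quantile normalization (median -0.7544). It called 23 with a mean above 0 and 9 of 9 with a mean of at least 50 (median -2.289). The shares of all genes called in the last 2 fits are not given here, so these counts are not set against a background. The median was -1.555 with a pseudocount of 5 and -1.706 with totals without mitochondrially encoded genes, a setting chosen after seeing the data. For HOPE 24 h against 3 h quantile normalization gave -0.3903. Leaving out 1 library gave medians of -0.3618 to 0.1878 for HOPE 48 h against 24 h, and -0.5359 to 0.07684 for 48 h against 3 h. For SCS against HOPE at 24 h it gave medians of -2.123 to -1.928. With 2 or 3 samples a group, and a median standard error of 0.25 in arm 1, small changes of single members could not be resolved.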
